A study of Sus scrofa with 4 samples.

Results

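The genes described here are the transcriptional effectors and kinases at the core of the Hippo pathway, YAP1, WWTR1, TEAD1, TEAD4, LATS1 and LATS2. They were chosen by name, and all features bearing each name, including extensions of the 3′ end, were summed, which gave 6 of the 30282 gene identifiers measured. The data are single-cell RNA libraries of pig pancreas made in droplets, 2 groups of 2. Porcine pancreatic ductal organoids (PPDO) were grown from hand-picked ducts in a basement membrane matrix, and primary pancreas was the dissociated organ. Both PPDO lines were kept in a medium with WNT3a, R-spondin, noggin, EGF, FGF10, gastrin, prostaglandin E2 and nicotinamide, together with an inhibitor of the TGF-beta receptor and a kinase inhibitor. The paper describes 1 line as late postnatal and the other as adult, sampled at unequal passages. Its methods, however, name both lines by postnatal days that its own definition counts as late postnatal. Which of the lines is PPDO 1 is not given in the labels. The primary libraries came from a wild-type and an INS-eGFP pig (a transgene driven by the insulin promoter, German landrace background), both late postnatal, processed on different days. Primary pancreas 1 was enriched for hand-picked ducts, and primary pancreas 2 pooled duct cells sorted by a lectin, eGFP-positive beta cells and unselected cells, provided that replicate 1 and 2 of the labels are the samples the study numbers likewise. Transgene features had 164 UMIs in primary pancreas 1 and 10390 in primary pancreas 2, and endocrine-like cells made up 1.78% and 51.8% of their cells. Cultured and freshly dissociated cells thus differ in culture, medium, age and dissociation at once, and these cannot be told apart.

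The Hippo pathway is a kinase cascade by which epithelial cells restrain growth in response to contact, shape and tension. The kinases LATS1 and LATS2 phosphorylate YAP1 and WWTR1 (whose protein is called TAZ), which are then held in the cytoplasm or degraded. Unphosphorylated YAP1 and WWTR1 enter the nucleus and activate genes through the DNA-binding TEAD factors, since they bind no DNA themselves. In the pancreas the pathway is best known for keeping acinar and ductal fates apart, and YAP1 is known to be lost when endocrine cells form. Transcript counts read the amount of each mRNA and not the phosphorylation or the place of its protein.

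In the RefSeq annotation of Sscrofa11.1, the build that the submitters' notes name for pig, YAP1 (ENSSSCG00000031429) lies at chr9:32811629-32924926 and WWTR1 (ENSSSCG00000011704) at chr13:89742980-89889547. TEAD1 (ENSSSCG00000013399) lies at chr2:46396490-46670619 and TEAD4 (ENSSSCG00000000736) at chr5:67130392-67167579. LATS1 (ENSSSCG00000004106) lies at chr1:16274955-16320980 and LATS2 (ENSSSCG00000036326) at chr11:1225523-1265970. TEAD4 and LATS1 had only a gene-model feature, while the extension held 3.24% to 7.88% of the UMIs of YAP1 in the 4 libraries and 2.03% to 7.77% of those of LATS2. A UMI (unique molecular identifier) marks a captured molecule.

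After filtering, 8885 and 7337 PPDO cells with a median of 34176 and 34459 UMIs remained, and 5676 and 4274 primary cells with a median of 10176.5 and 23651.5 UMIs. The 2 libraries of any pair shared 10 to 23 cell barcodes. Primary clusters were named from marker genes, with the pathway genes left out of clustering and naming. The ductal-like class held 2172 and 1172 cells of primary pancreas 1 and 2, and its summed ductal markers (8 of 10 listed genes matched, with none at 0) reached 27431 and 31327 CPM (UMI counts scaled to a total of 1000000 per library and class). In PPDO the same markers summed to 1040 and 920 CPM and none was at 0, while basal epithelial markers summed to 9145 and 11846 CPM against 258 and 146 CPM in ductal-like cells, so the organoids stood apart from the ducts in the markers of their label. The ductal-like class came from different clusters in the 2 libraries, and 0 of its 5 clusters had at least 20 cells in both. Endocrine markers, which free RNA can carry into other droplets, summed to 152 and 8028 CPM in ductal-like cells. Most of the class called stellate-like, 441 of its 744 and 41 of its 48 cells, was a cluster led by the smooth muscle genes MYH11, ACTA2 and TAGLN, on which its values mainly rest. At the finer resolution of 1.0 a cluster led by these genes could not be named.

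YAP1 and WWTR1, the co-activators, were highest in ductal-like cells and near 0 in endocrine-like cells. YAP1 stood in ductal-like cells at 341 CPM (primary pancreas 1) and 402 CPM (primary pancreas 2), at 238 and 267 CPM in stellate-like cells and at 107 and 93.5 CPM in endothelial-like cells. It fell to 26.6 and 8.71 CPM in acinar-like, 9.87 and 2.68 CPM in immune-like and 1.18 and 1.04 CPM in endocrine-like cells. PPDO had 169 and 174 CPM, between stellate-like and endothelial-like cells. Both libraries of each class stood on the same side of those of the next class in this order, except that acinar-like and immune-like cells overlapped. The order of immune-like and endocrine-like cells rests on few counts. The immune-like sum of primary pancreas 2 had 4 UMIs of YAP1, and the endocrine-like sum of primary pancreas 1 had 2.

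WWTR1 followed a different order among the non-epithelial cells. It was present at 578 and 565 CPM in ductal-like cells, at 510 and 437 CPM in endothelial-like cells and at 200 and 168 CPM in stellate-like cells, with PPDO at 166 and 156 CPM. Acinar-like cells had 34.5 and 10.3 CPM, immune-like cells 22.8 and 2.68 CPM and endocrine-like cells 4.14 and 1.16 CPM. The last 3 classes overlapped with their neighbours in the order.

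The number of YAP1 UMIs per WWTR1 UMI shows how the balance of the co-activators differed between classes. The ratio was 0.590 and 0.711 in ductal-like cells and 0.209 and 0.214 in endothelial-like cells. It was 1.19 and 1.59 in stellate-like cells and 1.02 and 1.11 in PPDO. Both PPDO libraries and both stellate-like sums thus lay above every ductal-like and endothelial-like sum. Since capture differs between genes, the ratio is read between classes only.

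A fit across 17009 genes had the library as a term. In it YAP1 passed as lower than in ductal-like cells in every class but the stellate-like. WWTR1 did so in every class but the endothelial-like. In these 2 exceptions both sums lay below both ductal-like sums, but the test did not pass. Endocrine-like cells had the lowest levels, with a log2 fold change against ductal-like cells of -7.36 ± 0.56 (SE) for YAP1 (edgeR adjusted p = 1.23e-07) and of -7.38 ± 0.66 for WWTR1 (adjusted p = 2.87e-07). The log2 fold changes in immune-like cells were -5.74 ± 0.51 and -5.56 ± 0.60 (adjusted p = 1.72e-07 and 1.2e-06), and in acinar-like cells -2.95 ± 0.46 and -3.36 ± 0.55 (adjusted p = 0.000154 and 0.000273). Endothelial-like cells had less YAP1 (-1.81 ± 0.41, adjusted p = 0.00202), and for WWTR1 the value was -0.19 ± 0.48 (adjusted p = 0.799). Stellate-like cells had less WWTR1 (-1.84 ± 0.50, adjusted p = 0.00878), and for YAP1 the value was -0.73 ± 0.40 (adjusted p = 0.194). All these comparisons share the ductal-like sums. Where a library is left out here and in what follows, a group of 1 library remains, which is assumed to vary like the groups that still have 2. Without primary pancreas 2 the endothelial-like call for YAP1 was lost (adjusted p = 0.0826), and leaving out either primary library ended the stellate-like call for WWTR1 (adjusted p = 0.0558 without 1 and 0.0715 without 2), as did the fit with no library term (adjusted p = 0.102).

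**Figure D1:**
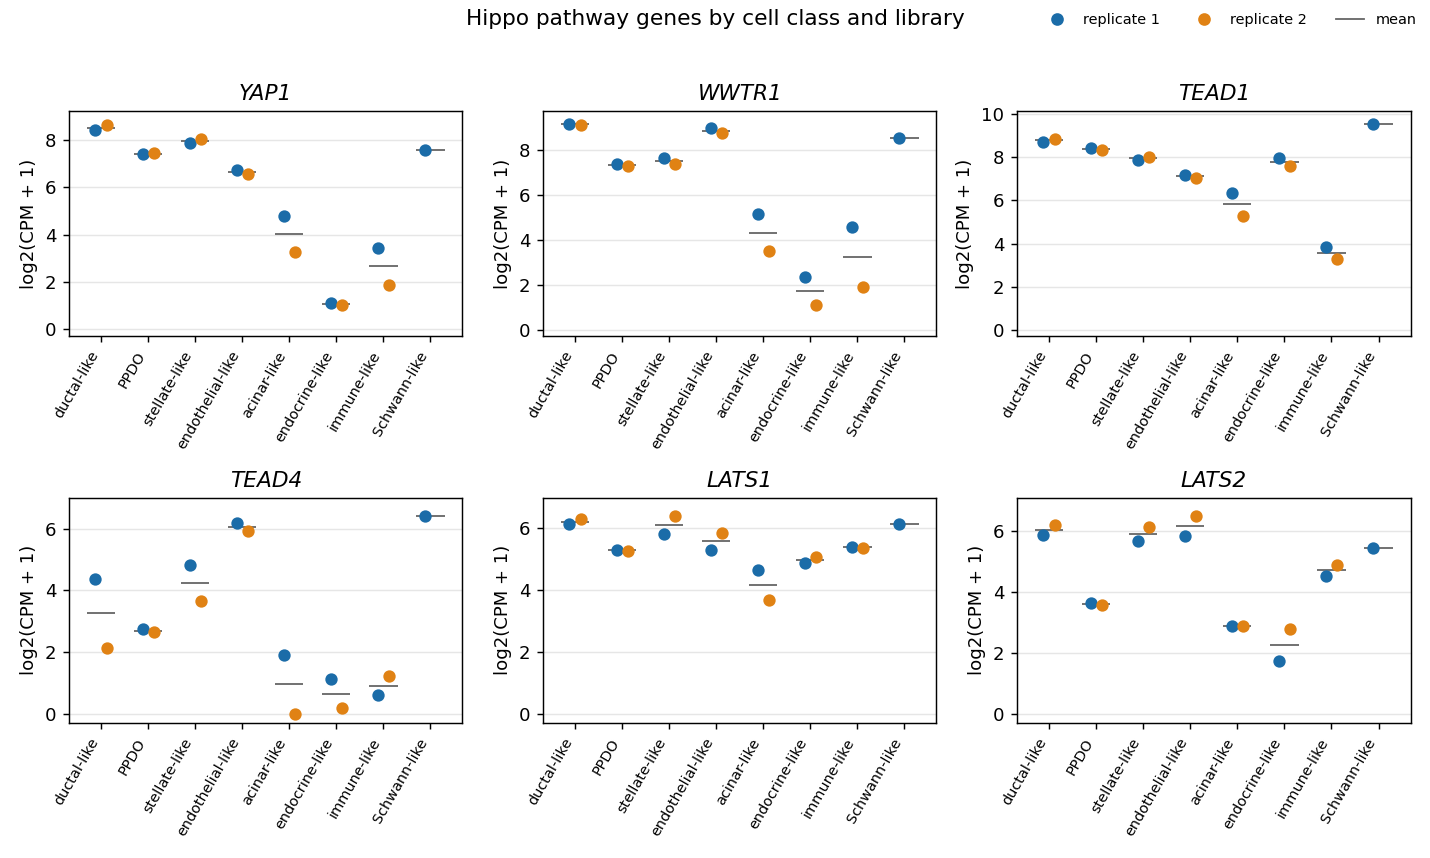
Level of each gene as log2(CPM + 1) by cell class, with a point for each library (replicate 1 or 2 of primary pancreas, or of PPDO) and a line at the mean. YAP1 and WWTR1 were lowest in endocrine-like cells, where TEAD1 stood at 253 and 190 CPM, and TEAD4 was highest in endothelial-like cells among the classes with 2 libraries. Schwann-like cells are shown for primary pancreas 1, since primary pancreas 2 had 1 such cell.

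TEAD1, a DNA-binding partner of both co-activators, was lowest in immune-like cells, at 13.4 and 8.70 CPM. Ductal-like cells had 421 and 465 CPM, PPDO 346 and 320 CPM, stellate-like cells 235 and 260 CPM and endothelial-like cells 146 and 132 CPM. Endocrine-like cells, almost without YAP1 and WWTR1, had 253 and 190 CPM of TEAD1, which overlapped with the stellate-like values. Acinar-like cells had 81.4 and 38 CPM.

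The endocrine-like value of TEAD1 depends on how a library dominated by hormone transcripts is scaled. Summed endocrine markers took 423814 and 543738 CPM of the endocrine-like cells, which leaves a smaller share of the total to all other genes. With TMM scaling the log2 fold change against ductal-like cells was -0.23 ± 0.36 (edgeR adjusted p = 0.688), and with library totals alone it was -1.03 (adjusted p = 0.0429). The median of all genes moved by 0.85 on the log2 scale between these scalings in endocrine-like cells. It moved by 1.49 in acinar-like cells, whose listed markers took 89900 and 162930 CPM. The cause of these shifts was not tested.

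Against ductal-like cells TEAD1 was lower in immune-like (log2 fold change -5.25 ± 0.45, edgeR adjusted p = 1.12e-07), acinar-like (-1.41 ± 0.38, adjusted p = 0.0116) and endothelial-like cells (-1.58 ± 0.37, adjusted p = 0.0027). Stellate-like cells just passed (-1.0 ± 0.37, adjusted p = 0.0481) and did not pass in 7 of 8 other settings. Leaving out either primary library likewise ended the endothelial-like call (adjusted p = 0.0828 without 1 and 0.178 without 2), and the acinar-like call was lost without primary pancreas 2 (adjusted p = 0.140).

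Within the endocrine-like class, TEAD1 was highest in a cluster of 55 and 418 cells led by SST, GCG and PPY, at 286 and 474 CPM in primary pancreas 1 and 2. Its cells had a median depth 0.353 times that of their library, and the part of depth in this level was not tested. At resolution 1.0 the cluster led by these hormones held 41 and 67 cells, so most cells of the larger cluster lay outside it. Clusters led by CHGA, SCG2 and INS had 253 and 232 CPM in the cluster with cells of both libraries, and 156 and 101 CPM in clusters almost wholly of primary pancreas 2. YAP1 was at most 4.73 CPM in all of them. The 345 Schwann-like cells of primary pancreas 1 had 755 CPM of TEAD1, and primary pancreas 2 had 1 such cell, which was not summed.

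TEAD4, a paralogue of TEAD1, was highest in endothelial-like cells among the classes with 2 libraries. Its level was 71.7 and 60 CPM in endothelial-like cells against 19.6 and 3.40 CPM in ductal-like cells, 27.5 and 11.5 CPM in stellate-like cells and 5.71 and 5.24 CPM in PPDO. The acinar-like, immune-like and endocrine-like sums were at most 2.78 CPM, and the Schwann-like cells of primary pancreas 1 had 83.9 CPM. Both endothelial-like sums lay above all sums of the other classes with 2 libraries, with a log2 fold change against ductal-like cells of 3.05 ± 0.51 (edgeR adjusted p = 0.000140). The call held in 9 of 9 other settings.

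Inside the endothelial-like class the level of TEAD4 varied with the cluster. The cluster led by SELP, MEOX1 and CCL21 had 91.9 and 94.3 CPM in primary pancreas 1 and 2, and the cluster led by the arterial genes SEMA3G and GJA5 had 104 CPM in primary pancreas 1. Clusters led by FLT1 or PLVAP, genes of capillary endothelium among others, had 56.2 CPM in primary pancreas 1 and 49.6 CPM in primary pancreas 2. WWTR1 was between 309 and 516 CPM in all of these clusters.

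LATS1 was the most evenly spread of the 6 genes, from 18.0 CPM on average in acinar-like cells to 73.1 CPM in ductal-like cells. Ductal-like cells had 69.4 and 76.8 CPM, stellate-like cells 55.4 and 82.9 CPM, endothelial-like cells 38.4 and 57.0 CPM and immune-like cells 41.3 and 40.1 CPM. PPDO had 38.3 and 37.6 CPM, endocrine-like cells 28.4 and 32.4 CPM and acinar-like cells 24.2 and 11.9 CPM. No other primary class differed from ductal-like cells past the threshold (edgeR adjusted p = 0.0784 for immune-like cells and higher for the others), but with library totals alone acinar-like and endocrine-like cells passed as lower.

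LATS2, its paralogue, was high in endothelial-like, ductal-like and stellate-like cells and lower in the other classes with 2 libraries. The Schwann-like cells of primary pancreas 1 lay between, at 42.1 CPM. Endothelial-like cells had 56.2 and 89.0 CPM, ductal-like cells 57.5 and 73.0 CPM and stellate-like cells 49.4 and 69.1 CPM, and these overlapped. Immune-like cells had 21.9 and 28.8 CPM, PPDO 11.5 and 10.9 CPM, acinar-like cells 6.35 and 6.34 CPM and endocrine-like cells 2.37 and 5.93 CPM. Against ductal-like cells the log2 fold change was -2.91 ± 0.38 in endocrine-like (edgeR adjusted p = 1.28e-05), -1.80 ± 0.42 in acinar-like (adjusted p = 0.00468) and -1.32 ± 0.35 in immune-like cells (adjusted p = 0.00579). The acinar-like call was lost without primary pancreas 1 (adjusted p = 0.0987), and the immune-like call without either library (adjusted p = 0.0673 and 0.0949). Within immune-like cells the cluster led by the T and natural killer cell genes GNLY, CD3E and CD2 had 37.3 and 44.1 CPM of LATS2, and the cluster led by the myeloid genes AIF1 and FCER1G 8.36 and 20 CPM, with 19.6 CPM in a macrophage cluster of primary pancreas 1 led by CCL8, MRC1 and C1QB.

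The number of the 6 genes that passed the test against ductal-like cells can be read beside the share of all genes that did. In endothelial-like cells 3 of 6 passed, 1 higher and 2 lower, against 36.1% of all genes (18.2% higher and 17.9% lower). In stellate-like cells 2 passed, both lower, against 31.4% (17.0% and 14.5%). In acinar-like cells 4 passed, all lower, against 24.7% (9.43% and 15.3%). These shares set the scale for the classes that follow. In endocrine-like cells 4 passed, all lower, against 33.1% (17.2% and 15.9%). In immune-like cells 5 passed, all lower, against 41.1% (19.0% and 22.1%), and the TEAD4 call among them was lost without primary pancreas 1 (adjusted p = 0.416). With library totals alone the acinar-like and endocrine-like counts were 6 and 6, all lower. The median log2 fold change of all genes was then -2.00 and -0.87, and the share of all genes passing on that scale is not given here. With TMM scaling the median log2 fold change of the 6 genes was -1.61 in acinar-like, -3.50 in endocrine-like and -4.65 in immune-like cells. Over all genes it was -0.51, -0.01 and -0.09.

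The share of cells with at least 1 UMI was compared after each cell had been thinned to 3000 UMIs. Cells with fewer UMIs were left out, so the shares describe the deeper cells of a class. In primary pancreas 1, 2059 of 2172 ductal-like, 73 of 101 endocrine-like and 632 of 712 immune-like cells remained. The thinning was done because median UMIs per cell were higher in both PPDO libraries than in either primary library. YAP1 or WWTR1 was found in 86.7% (95% Clopper-Pearson interval 85.2 to 88.2) and 92.7% (91.0 to 94.1) of ductal-like cells. The share was 55.6% (54.5 to 56.6) and 56.2% (55.1 to 57.3) in PPDO, 75.7% and 75.1% in endothelial-like and 64.6% and 64.6% in stellate-like cells. In endocrine-like and immune-like cells, the classes with the lowest levels, it was 1.17% to 4.11%, and how much of this was free RNA was not tested. Before thinning, the median UMIs per cell were 17875.5 and 20545 in ductal-like, 12878 and 39409 in endocrine-like and 6729.5 and 9082 in immune-like cells. Shares of acinar-like cells were 18.4% and 3.57%, and the intervals cover counting error only.

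TEAD1 was found in 50.7% and 45.1% of the thinned endocrine-like cells, compared with 65.0% and 71.2% of ductal-like cells, 58.6% and 56.2% of PPDO cells and 2.22% and 0.719% of immune-like cells. TEAD4 was found in 18.0% and 16.2% of endothelial-like cells. In endocrine-like cells of primary pancreas 2 it was found in 0 of 2213 cells, which at this thinned depth allows a share of cells with a UMI of up to 0.136% (3 counts of the total). Without thinning 11 of the same 2213 cells (0.497%) had a UMI of TEAD4. In ductal-like cells the share was 4.57% (3.70 to 5.56) in primary pancreas 1 and 0.853% (0.410 to 1.56) in primary pancreas 2.

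**Figure D2:**
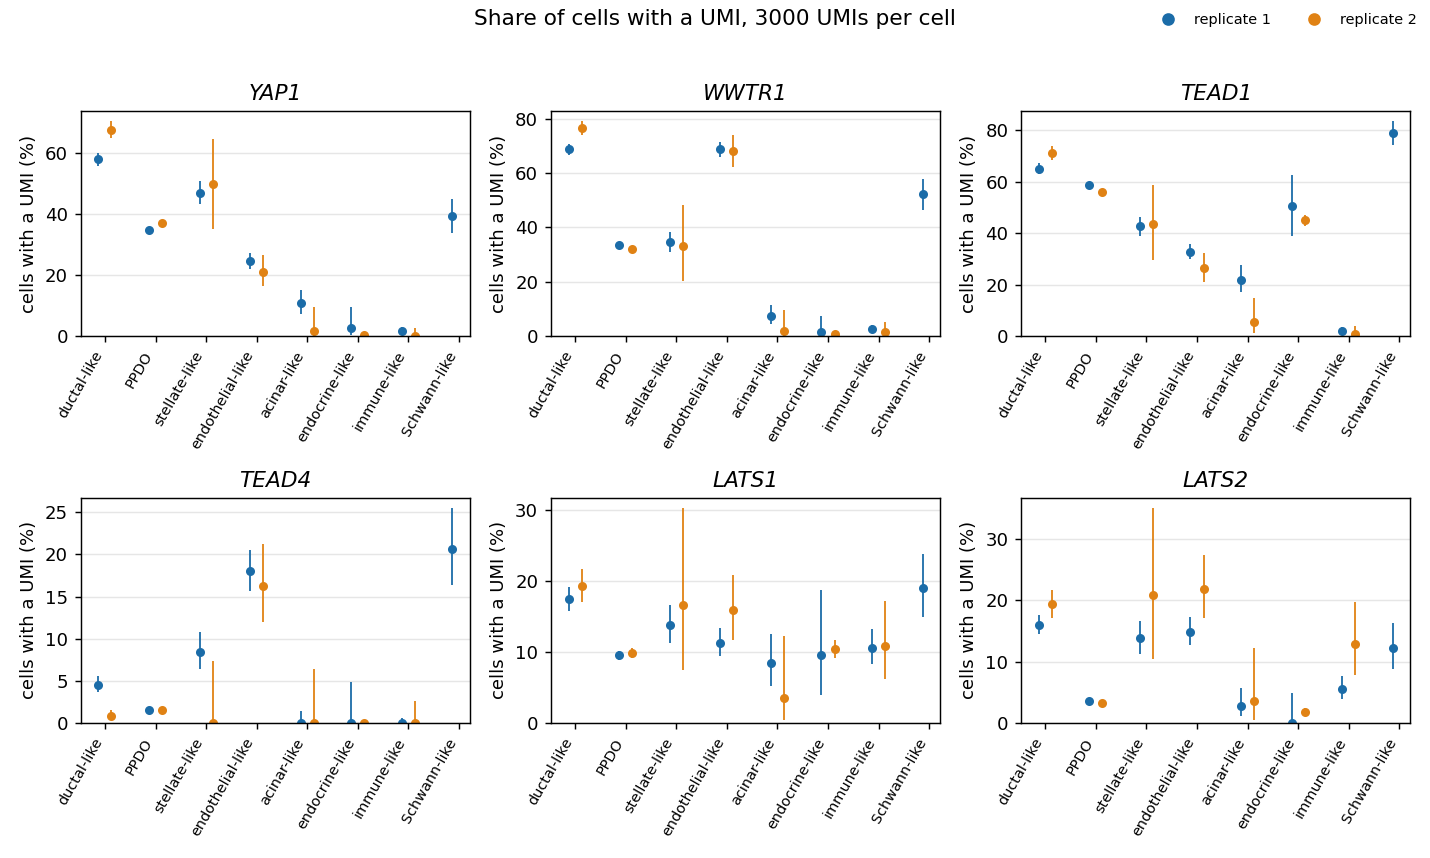
Share of cells with a UMI of each gene after thinning to 3000 UMIs per cell, in percent, by cell class and library, with 95% Clopper-Pearson intervals as bars. Cells with fewer UMIs were left out. TEAD1 was found in 50.7% and 45.1% of endocrine-like cells, where YAP1 was found in 2.74% and 0.452%. PPDO lay below ductal-like cells in both libraries for every gene except TEAD4, and how often this held over all genes was not computed. These shares are on library totals, where the median log2 fold change of all genes was -0.45.

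The question of the main comparison was how PPDO differ from primary duct cells, here those of other pigs than the organoids came from. PPDO had less YAP1, WWTR1, LATS1 and LATS2 mRNA than primary ductal-like cells, and no difference past the threshold in TEAD1 and TEAD4. These are 4 of 6 genes, all lower, where 43.5% of 23535 genes passed in either direction, 22.7% as higher and 20.8% as lower. The median log2 fold change of the 6 genes was -0.68 against 0.01 over all genes. Fewer of the 6 genes passed without PPDO 1 or without PPDO 2, and the share of all genes passing there is not given.

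LATS2 differed most. Its level was 11.2 ± 0.453 CPM in PPDO (SD, n = 2) and 65.2 ± 10.9 CPM in ductal-like cells (SD, n = 2), and the log2 fold change was -2.08 ± 0.14 (edgeR adjusted p = 0.00114). The call held in 14 of 14 other settings. LATS2 UMIs per LATS1 UMI were 0.3 and 0.289 in PPDO and 0.828 and 0.95 in ductal-like cells, so the kinases did not fall in proportion.

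WWTR1 was at 161 ± 6.91 CPM in PPDO and 571 ± 9.20 CPM in ductal-like cells (SD, n = 2 each), and the log2 fold change was -1.37 ± 0.15 (edgeR adjusted p = 0.00347). This call also held in 14 of 14 other settings. YAP1 was at 172 ± 3.16 and 371 ± 43.1 CPM, a log2 fold change of -0.65 ± 0.13 (adjusted p = 0.0157). LATS1 was at 37.9 ± 0.468 and 73.1 ± 5.22 CPM, with -0.49 ± 0.13 (adjusted p = 0.0351). The YAP1 and LATS1 calls were lost without PPDO 1 (adjusted p = 0.125 and 0.217) and without PPDO 2 (0.0948 and 0.191), and the LATS1 call also with the replicate number as a block (adjusted p = 0.0830) and with no filter on low counts (0.0754).

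TEAD1 had a log2 fold change of 0.04 ± 0.13 (edgeR adjusted p = 0.800). Its CPM was lower in both PPDO libraries than in both primary libraries, 333 ± 18.6 against 443 ± 31.0 (SD, n = 2 each). TMM scaling raised the median fold change of all genes by 0.46 on the log2 scale relative to library totals. With library totals TEAD1 was at -0.41 (edgeR adjusted p = 0.0821) and the same 4 genes passed as lower. The share of all genes passing with library totals is not given here.

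TEAD4 depended on the primary library. Its level was 5.71 and 5.24 CPM in PPDO, which lay between the 19.6 CPM of ductal-like cells in primary pancreas 1 and the 3.40 CPM in primary pancreas 2. The log2 fold change was -0.71 ± 0.86 (edgeR adjusted p = 0.538). Without primary pancreas 1 it was 1.22 and without primary pancreas 2 it was -1.52, so no direction can be given for this gene.

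The share of cells with a UMI was compared at 3000 UMIs per cell, with shallower cells left out as before. Thinning sets each cell kept to the same total, with no TMM factor. On library totals the median log2 fold change of all genes was -0.45, so the shares are no check apart from scaling. YAP1 was found in 36.0% ± 1.53 of PPDO cells and 63.0% ± 6.89 of ductal-like cells (SD, n = 2 each), WWTR1 in 32.8% ± 1.08 and 72.7% ± 5.52, and TEAD1 in 57.4% ± 1.73 and 68.1% ± 4.33. LATS1 was found in 9.69% ± 0.246 and 18.3% ± 1.34, and LATS2 in 3.43% ± 0.128 and 17.7% ± 2.36. The groups did not overlap for these 5 genes and overlapped for TEAD4 (1.56% ± 0.0410 and 2.71% ± 2.62). How often the groups failed to overlap over all genes was not computed, so the count of 5 is not read as a result about these genes. With 2 libraries against 2, an exact two-sided permutation test cannot go below p = 0.33, which was reached for the 5 genes (adjusted p = 0.40 over 6). The shares without thinning, where PPDO cells had more UMIs, did not overlap for WWTR1 and LATS2 alone.

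**Figure D3:**
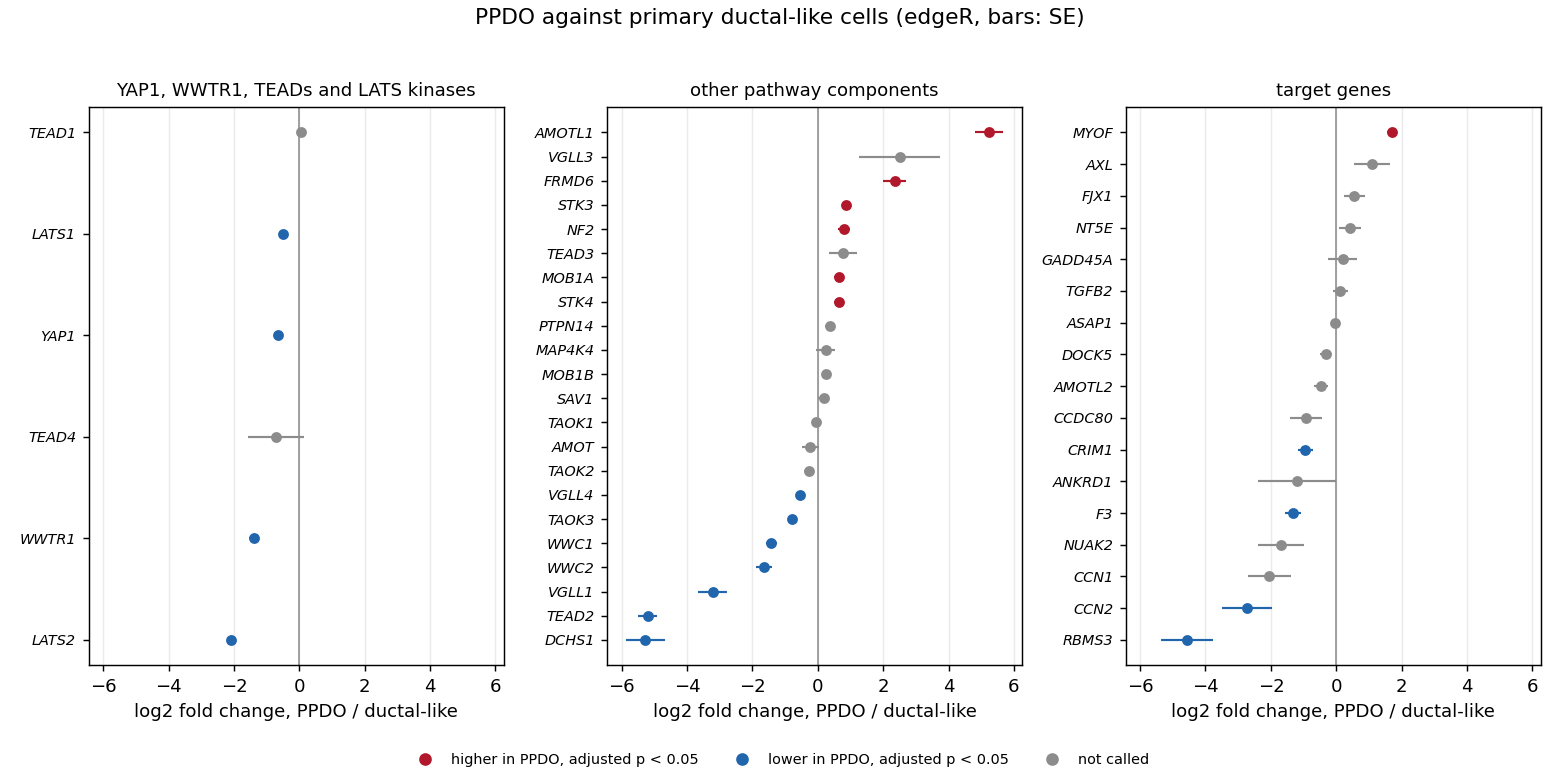
Log2 fold change of PPDO against primary ductal-like cells from edgeR, with SE as bars, for the 6 genes, other pathway components and target genes. Points in colour passed an adjusted p of 0.05. LATS2 stood at -2.08, AMOTL1 at 5.24, TEAD2 at -5.20 and MYOF at 1.70.

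Other components of the pathway moved in both directions. Of 25 listed genes 22 were matched by symbol and tested. In PPDO 6 were higher and 7 lower (against 22.7% and 20.8% of all genes), with a median log2 fold change of 0.21 against 0.01 over all genes. With library totals alone 2 were higher and 9 lower, where the median of all genes was -0.45 and the share of all genes passing is not given. Fewer of these components passed without PPDO 1 or without PPDO 2, and the share of all genes passing there is not given either. AMOTL1, an angiomotin-like protein that binds YAP1 and holds it at cell junctions, rose most. It was at 413 and 352 CPM in PPDO and at 17.1 and 9.76 CPM in ductal-like cells (log2 fold change 5.24 ± 0.43, edgeR adjusted p = 0.00167). FRMD6, a scaffold upstream of the kinases, was at 414 and 389 CPM against 132 and 79.5 CPM (2.35 ± 0.35, adjusted p = 0.00754).

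STK3, NF2 and MOB1A rose less, as did STK4 (0.64 ± 0.16, edgeR adjusted p = 0.0318, and up to 0.580 in other settings), whose groups overlapped, while SAV1 (0.18 ± 0.16, edgeR adjusted p = 0.412) and MOB1B (0.24 ± 0.12, adjusted p = 0.170) did not pass. The last 3 genes were named after their values were seen. STK3, a kinase that activates LATS kinases, was at 193 and 205 CPM in PPDO and at 146 and 153 CPM in ductal-like cells (0.87 ± 0.14, edgeR adjusted p = 0.00973). NF2, the membrane-associated upstream tumour suppressor merlin, was at 26.6 and 30.3 CPM against 19.2 and 26.5 CPM (0.79 ± 0.18, adjusted p = 0.0248). MOB1A, a co-activator of LATS kinases, was at 56.0 and 57.7 CPM against 50.0 and 48.5 CPM (0.66 ± 0.16, adjusted p = 0.0285). None of the calls for STK3, NF2 and MOB1A held with library totals alone, without PPDO 1, without PPDO 2 or with the ductal-like PPDO cells alone.

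Among the components that fell, TEAD2, another member of the TEAD family, was almost absent from PPDO. It was at 0.758 and 0.492 CPM (228 and 129 UMIs) in PPDO and at 27.4 and 35.9 CPM in ductal-like cells (log2 fold change -5.20 ± 0.29, edgeR adjusted p = 0.000769). DCHS1, a large protocadherin, was at 0.0166 and 0.0419 CPM (5 and 11 UMIs) against 1.61 and 1.52 CPM (-5.27 ± 0.59, adjusted p = 0.00351). VGLL1, a TEAD-binding cofactor, was at 0.488 and 0.316 CPM against 3.51 and 7.0 CPM (-3.21 ± 0.44, adjusted p = 0.0058), and its call was lost with the ductal-like PPDO cells alone (adjusted p = 0.0642).

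The scaffold proteins WWC1 (KIBRA) and WWC2, which promote LATS activity, also fell. WWC1 was at 172 and 138 CPM in PPDO and 568 and 560 CPM in ductal-like cells (-1.42 ± 0.17, edgeR adjusted p = 0.0042), a call lost with the ductal-like PPDO cells alone (adjusted p = 0.0772). WWC2 was at 80.5 and 80.3 CPM against 249 and 453 CPM (-1.64 ± 0.24, adjusted p = 0.00742), and just missed the threshold without PPDO 1 (adjusted p = 0.0501). WWC1 was at most 119.5 CPM in the other primary classes.

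Most of the genes reported as targets of YAP, TAZ and TEAD did not pass the test, and neither did most of all genes (43.5% passed in either direction). Of 20 listed genes 18 were matched by symbol and 17 tested (FOXF2 had 0 to 3 UMIs in each sum). Of these 1 was higher, 4 were lower and 12 did not pass (against 22.7% higher and 20.8% lower over all genes). The median log2 fold change was -0.46 against 0.01 over all genes. With library totals alone 1 was higher and 8 lower, where the median of all genes was -0.45 and the share of all genes passing is not given. More of the targets passed without primary pancreas 2, where the share of all genes passing is not given either. MYOF, a membrane repair protein, rose, from 76.7 and 106 CPM in ductal-like cells to 230 and 200 CPM in PPDO (1.70 ± 0.15, edgeR adjusted p = 0.00205). Apart from MYOF no call held without PPDO 1 or without PPDO 2, and the share of all genes passing there is not given.

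CCN2, a matricellular protein and a classical YAP target, was at 11.8 and 17.5 CPM in PPDO and at 200 and 53.1 CPM in ductal-like cells (-2.72 ± 0.76, edgeR adjusted p = 0.0432). The call was lost with the replicate number as a block (adjusted p = 0.0935), without PPDO 1 (0.170), without PPDO 2 (0.122) and with the ductal-like PPDO cells alone (0.453). With those cells alone the F3 and CRIM1 calls were lost too (adjusted p = 0.0522 and 0.207). F3, the tissue factor, was at 34.5 and 32.2 CPM against 127 and 96.3 CPM (-1.31 ± 0.24, adjusted p = 0.0140). CRIM1, a transmembrane protein that binds bone morphogenetic proteins, was at 174 and 152 CPM against 478 and 373 CPM (-0.95 ± 0.23, adjusted p = 0.0306). RBMS3, an RNA-binding protein, was at 0.206 and 0.278 CPM against 11.6 and 3.44 CPM (-4.56 ± 0.80, adjusted p = 0.0117), far below the 897 and 798 CPM of endothelial-like and 1524 and 1364 CPM of stellate-like cells.

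Ductal-like cells were not uniform in TEAD4. A cluster of 1292 cells led by OSGIN1, RND1 and EREG had 23.8 CPM of TEAD4, a cluster of 449 cells led by UNC13D, SHANK2 and CFTR had 18.0 CPM, and a cluster of 430 cells led by DEFB115 and SLC47A2 had 2.6 CPM. The clusters of primary pancreas 2, of 1108 and 64 cells, had 3.38 and 3.9 CPM. TEAD4 was thus high in 2 of the 3 clusters of primary pancreas 1, while the third lay with primary pancreas 2. The median depth of these 3 clusters was 2.16, 0.502 and 1.52 times that of the library, in the order given, and its part in these levels was not tested.

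The target genes CCN1, CCN2 and ANKRD1 were highest in the same cluster led by OSGIN1, RND1 and EREG. CCN1 was at 256 CPM there, at 77.4 and 21.7 CPM in the other clusters of primary pancreas 1 and at 64.6 and 37.7 CPM in those of primary pancreas 2. CCN2 was at 248 CPM in this cluster and between 38.5 and 93.1 CPM in the other 4. ANKRD1 was at 20.7 CPM in it and at 16.1, 3.64, 1.9 and 1.3 CPM elsewhere. YAP1, in contrast, was between 319 and 343 CPM in the 3 clusters of primary pancreas 1 and at 394 and 644 CPM in those of primary pancreas 2. These genes were chosen for display after their values were seen, and the clusters were made from the same cells, so no test was run.

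Leaving out the cluster of 1292 cells moved TEAD4 to 0.58 (edgeR adjusted p = 0.308) in the comparison of PPDO with ductal-like cells.

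**Figure D4:**
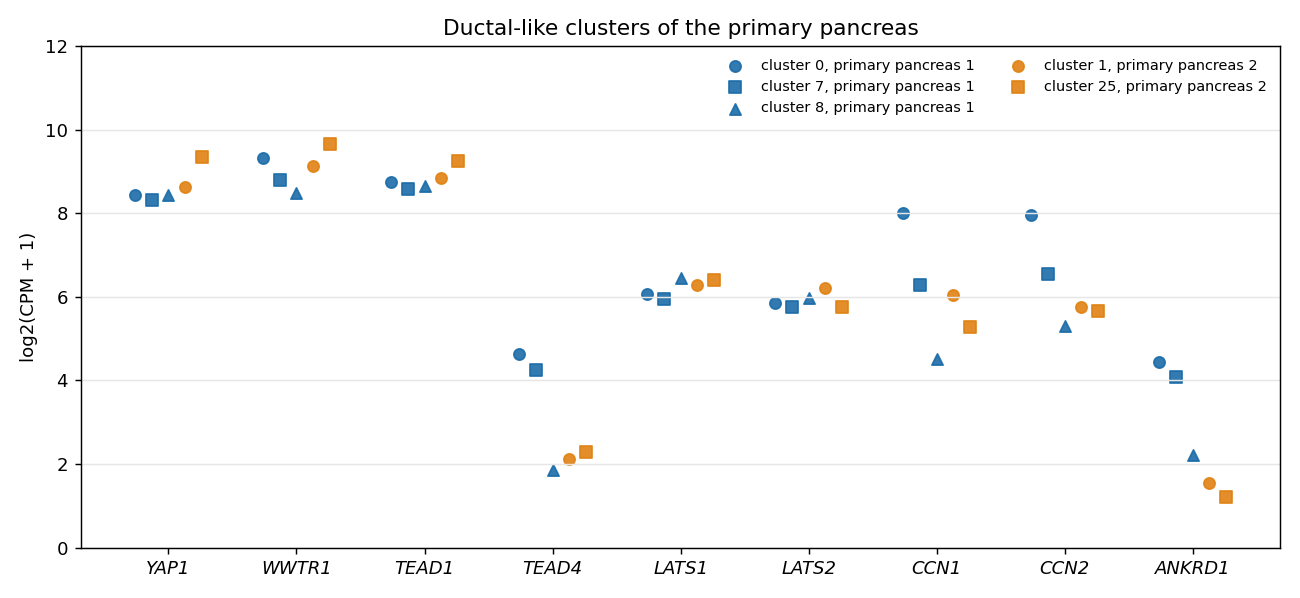
Level as log2(CPM + 1) of the 6 genes and of the targets CCN1, CCN2 and ANKRD1 in the 5 ductal-like clusters, each shown for the library that held its cells (colour; 1 further cell of cluster 1 came from primary pancreas 1). TEAD4 was at 23.8 and 18.0 CPM in clusters 0 and 7 of primary pancreas 1 and between 2.6 and 3.9 CPM in the other 3, and CCN1 was at 256 CPM in cluster 0.

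Both PPDO libraries contributed to all 10 PPDO clusters. In 9 of them TEAD1 was between 309 and 397 CPM on average and LATS1 between 27.2 and 44.2 CPM. Their ratios of highest to lowest cluster, 1.28 and 1.62, were the smallest of the 6 genes once the other cluster was left out. That other cluster was a small cluster of 38 and 93 cells led by the cornified-layer genes KRT1, CNFN and S100A8, in which all 6 genes were at their lowest on average. For TEAD4 the lowest cluster was not the same in PPDO 1 and PPDO 2. In the small cluster TEAD1 stood at 27.8 and 26.0 CPM, YAP1 at 31.8 and 35.3 CPM and WWTR1 at 15.9 and 18.0 CPM. Its cells had a median depth 0.393 times that of their library, and the part of depth in these values was not tested. At resolution 0.3 S100A8 and CNFN led, with SPINK5, a larger cluster of 372 and 487 cells. There TEAD4, LATS1 and LATS2 were lowest on average but YAP1 was highest, at 209 CPM. YAP1, WWTR1 and TEAD1 were lowest at that resolution in the cluster led by ADM and TIMP3.

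YAP1 and WWTR1 were low in a glycolysis-like cluster led by ADM, VEGFA and TIMP3, with 75.3 and 80.7 CPM of YAP1 and 95.2 and 87.6 CPM of WWTR1 in PPDO 1 and 2. LATS2 was highest in this cluster, at 18.8 and 15.8 CPM. The cluster had 1402 and 403 cells and a median depth 0.597 times that of its library. WWTR1 was highest in the basal-like cluster led by MMP3 and GPNMB, at 221 and 212 CPM. YAP1 was highest on average in a cluster led by SPINK5, KLK7 and DSG1, at 198 and 231 CPM.

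TEAD4 showed the widest range by the ratio of the highest to the lowest cluster. It was highest in the cluster led by the DNA replication genes DTL, UHRF1 and MCM3, at 19.6 and 17.0 CPM, which was 3.53 and 3.53 times the median cluster of its library. The proliferating cluster led by CENPF and TOP2A had 8.0 and 6.39 CPM. The cluster led by SPINK5, KLK7 and DSG1 had 0.536 and 0.44 CPM of TEAD4. The 2 libraries differed in the ductal-like PPDO cluster led by SPP1 and WFDC2, with 14.7 and 4.02 CPM.

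This ductal-like PPDO cluster, of 268 and 170 cells, was also high in several targets. AMOTL2, an angiomotin-like protein, was at 108 and 88.9 CPM in it, and MYOF at 378 and 407 CPM. CCN2 was at 86.5 and 31.5 CPM and ANKRD1 at 103 and 1.28 CPM, so that for ANKRD1 the level came from PPDO 1 alone. AMOTL1 was at 105 and 108 CPM there, against 533 and 452 CPM in the cluster led by CXCL14 and LGR6. These genes, too, were chosen after their values were seen.

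**Figure D5:**
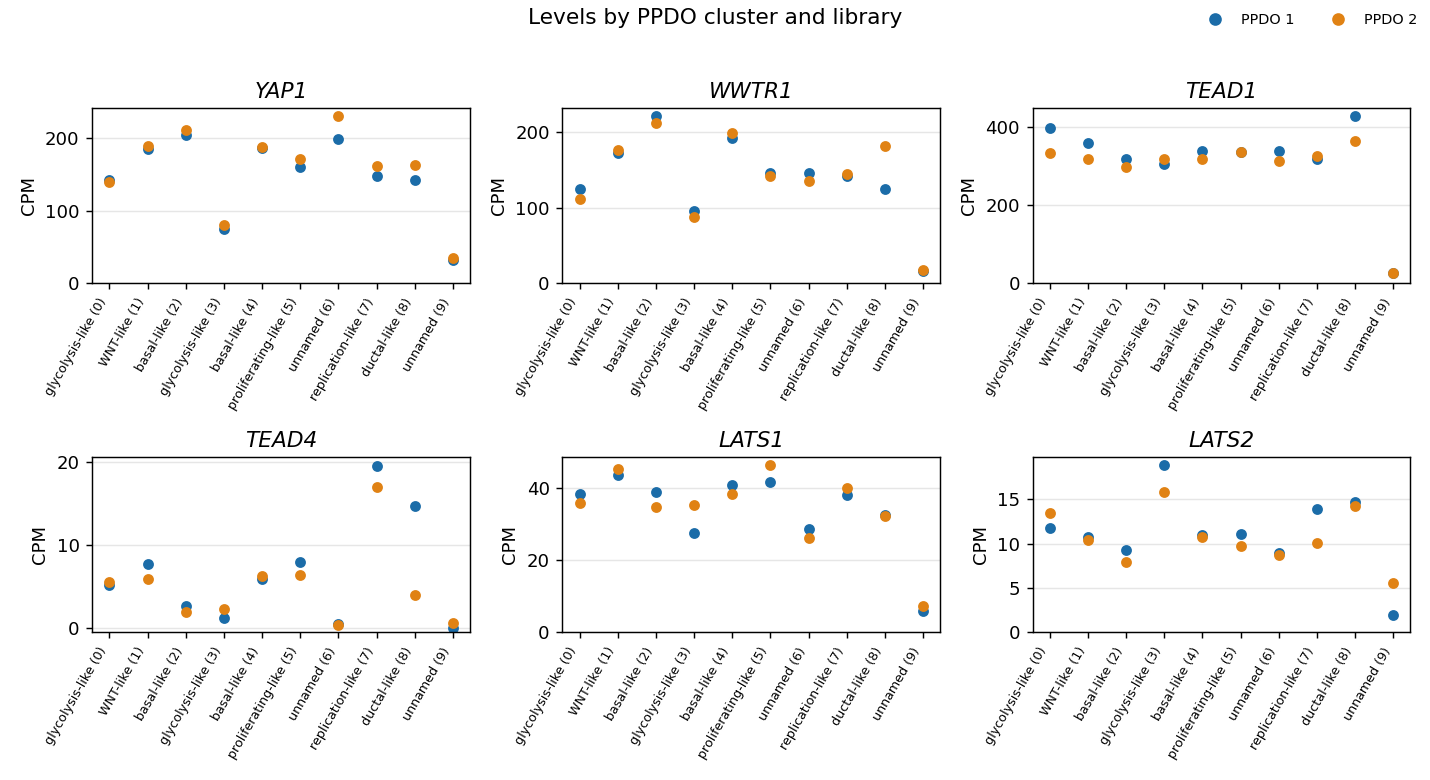
CPM of the 6 genes in the 10 PPDO clusters, with a point for each library. TEAD4 peaked in the replication-like cluster (19.6 and 17.0 CPM), and all 6 genes were at their lowest average in cluster 9, led by S100A8. For TEAD4 the lowest cluster was not the same in both libraries.

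Genes whose levels followed each of the 6 most closely were found over 14 sums, the 6 primary classes with 2 libraries and PPDO, among 9105 genes of at least 10 CPM on average. The measure was Pearson's r of log2(CPM + 1), given as a description, since the sums of a library share its depth and free RNA. YAP1 was followed by TM4SF1 (0.972), KIF1C (0.971) and its target AMOTL2 (0.97). WWTR1 was followed by CDC42EP1 (0.975), TRAF3IP2 (0.973) and NFIB (0.971). The 2 co-activators had r = 0.952 with each other.

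TEAD1 was followed by PHLDB2 (0.955), CTTN (0.938) and IFT27 (0.936), and had r = 0.599 with YAP1 and 0.558 with WWTR1. TEAD4 was followed by DOCK9 (0.935), TNFAIP1 (0.929) and SMAD6 (0.927). LATS1 was followed by POGZ (0.982), RING1 (0.975) and SENP6 (0.963), and LATS2 by PTTG1IP (0.97), STOM (0.961) and SHC1 (0.952).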

How the data were processed

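Live sorted cells were made into droplet libraries by the authors, who counted molecules with Cell Ranger 7.1.0 on their own extended pig annotation. Deposited matrices hold UMI counts, whole and not normalized, from before the study's removal of free RNA. Barcode and feature lists came with them. Sequence tables were not used here. Replicates are separate animals or lines, as far as the study states.

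Cells were filtered after the study's limits, except that 1000 features was the floor for both PPDO libraries, where the study set a lower floor for 1 line (PPDO at most 3% mitochondrial UMIs and 9000 features, primary pancreas under 8% and 9000 features, with more than 400 features in 1, and more than 800 features and 3000 UMIs in 2). Scrublet thresholds of 0.25 and 0.15 removed 84 and 141 primary doublets. Clusters (Scanpy 1.11.5, leidenalg 0.10.2, resolution 0.5) were named from fixed marker lists, with thresholds set after clusters were seen. Counts were summed per library and class (at least 20 cells), and tested with edgeR 4.0.16 (TMM, filterByExpr, quasi-likelihood, Benjamini-Hochberg at 0.05 over all genes). Primary classes were fitted together with library as a term. SEs are the log2 fold change divided by the square root of F. Simulated data had a fold of 4 and a dispersion (squared coefficient of variation) of 0.05. There 99% of 200 changed genes were recovered for PPDO (3 false calls of 22873 genes) and 96% for endothelial-like cells (6 of 15181). The fits to the data had a coefficient of variation of 0.305 (PPDO) and 0.281 (classes), a wider spread than simulated. Recovery at that spread, or of smaller folds such as most of those reported, was not tested.

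Members and gene lists were chosen with earlier results of these data known. List genes named were the 5 with the largest change in each direction past the threshold with no overlap between groups, and any needed to complete a count of 5 or fewer. Listed genes not matched were FAT1, FAT4, CRB3, IGFBP3 and ARHGEF17.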

Additional observations from a re-analysis of the deposited data

How the results depend on the processing

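Against ductal-like cells, 4 of the 6 genes passed in PPDO, and 2 to 5 when a library was left out. The components counted 13 (6 to 14) and the targets 5 (1 to 9). The targets counted 9 with library totals alone and 3 with ductal-like PPDO cells alone. TEAD1 turned to -0.41 with library totals alone and -0.079 with sums thinned to the smallest, and ranged from -0.022 (without primary pancreas 2) to 0.054 (without PPDO 2) when a library was left out. TEAD4 ranged from -1.52 (without primary pancreas 2) to 1.22 (without primary pancreas 1), and turned to 0.58 without the largest ductal-like cluster of primary pancreas 1. That setting and library totals alone were chosen after seeing the data. Replicate numbers did not pair the samples (correlation of deviations -0.0129), and with the replicate block 3 genes, 10 components and 4 targets passed. Between primary classes, 18 tests passed in all, and fewer when either library was left out. The counts then fell in endothelial-like (3 before), immune-like (5 before) and stellate-like cells (2 before). The stellate-like count was 1 with RLE scaling, library totals alone, no filter or no extensions, and 0 with no replicate block. Without thinning, shares of 2 genes did not overlap (5 before), counts for which no share over all genes was computed. The differences became 2.42 points for TEAD1 and 1.33 for TEAD4. The highest over the median PPDO cluster was 1.51 for WWTR1, 3.18 for TEAD4 and 1.62 for LATS2, and 1.47, 2.85 and 1.41 at resolution 0.3. The cause of these changes was not tested. Restricting to ductal-like clusters with cells of both libraries was not run, since there were 0, and stellate-like cells gave no value at resolution 1.0. All other counts stayed within 1.5 times their value. Low counts limit TEAD4, with 11 UMIs at most in endocrine-like and 7 in acinar-like sums. They also limit YAP1 and WWTR1, with 2 and 7 UMIs in endocrine-like cells of primary pancreas 1. In immune-like cells of primary pancreas 2 these genes had 4 and 4 UMIs. LATS2 had 4 UMIs in endocrine-like cells of primary pancreas 1, and 16 and 8 in acinar-like cells of primary pancreas 1 and 2.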
